A study of Mus musculus with 8 samples.

Results

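H3K27ac, an acetylation of histone H3 carried by active promoters and enhancers, was examined at 9 gene loci of the intestinal stem cell programme, Lgr5, Ascl2, Sox9, Ephb2, Ephb3, Myc, Tcf7, Lef1 and Cd44, in mouse colon cancer organoids with and without Gata6. Members were all peaks of the deposited table that overlapped a fixed window around each gene in mm9, which gave 67 of 22731 peaks. The windows were chr10:114800000-115100000 for Lgr5, chr7:150110000-150190000 for Ascl2, chr11:112400000-112800000 for Sox9, chr4:136170000-136430000 for Ephb2 and chr16:21160000-21260000 for Ephb3. Those of Myc, Tcf7, Lef1 and Cd44 were chr15:61600000-62000000, chr11:52030000-52140000, chr3:130750000-130970000 and chr2:102620000-102800000. They were 80 to 400 kb long, so a peak is named by its window and by its number in order along the chromosome, and it need not belong to the gene. The compared groups were 3 H3K27ac libraries of Gata6KO_AKP organoids (knockout) and 3 of AKP organoids (control), made from dissociated organoids. In the CUT&RUN assay used, a nuclease tethered to an antibody cuts out the marked chromatin, whose DNA is then sequenced. Both groups share the AKP genotype, which the labels give by these letters alone, and their recipient mice are labelled C57Bl6. The labels name neither the method of the knockout nor the number of clones or cultures. The spread behind each p-value is therefore that of the libraries at hand, and it may be only technical. Single H3K4me3 and IgG libraries of control organoids were not analysed here, and the tissue label and the loss of Gata6 were not checked.

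Stem cells at the base of intestinal crypts are maintained by Wnt signals, which let beta-catenin join DNA-bound TCF/LEF factors and activate target genes. LGR5, the receptor of the R-spondins that strengthen Wnt signals, marks these cells, and ASCL2, a basic helix-loop-helix factor, maintains their identity. EPHB2 and EPHB3 are receptor kinases that sort cells along the crypt axis, while GATA6 is a zinc finger factor of the gut epithelium that binds GATA sequences.

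Reads in peaks numbered 5141856 to 7026388 per library, of which 0.427% to 0.456% fell in the 67 member peaks. A member peak held 41 to 3728 reads in a library, with a median of 194, and all 67 passed the filter on low counts. Levels are given as CPM, the reads of a peak scaled to a fixed total of reads in peaks with TMM factors, so a shift common to every peak is scaled out. A fall of acetylation in all cells and a smaller share of acetylated cells cannot be told apart in such bulk samples.

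The 9 loci did not move as a block. Of the 67 peaks, 9 were called higher in the knockout and 13 lower, which is 13.4% and 19.4% of them (edgeR's quasi-likelihood test, Benjamini-Hochberg adjustment over all peaks, adjusted p under 0.05). Over all 22731 peaks, 11.6% were called higher and 10.2% lower, 21.8% in all. On the chromosomes that carry the windows, 10.1% to 12.7% of peaks were called higher and 4.56% to 9.59% lower. Of the 13 lower calls, 8 lay in the Ephb2 window. The Ephb2 peaks lie almost end to end, so these 8 need not be separate changes. The remaining 51 member peaks held 17.6% higher and 9.80% lower calls. The median log2 fold change was -0.03 over the members and -0.01 over all peaks, with members between -1.57 and 1.14. The 3 knockout libraries lay wholly above or below the 3 control libraries at 24 member peaks (35.8%), against 33.8% of all peaks. Of the 67 members, 7 were called with a change of at least 1.5-fold and 2 with one of at least 2-fold, against 10% and 2.92% of all peaks. The latter 2 lay in the Lgr5 and Ascl2 windows.

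**Figure D1:**
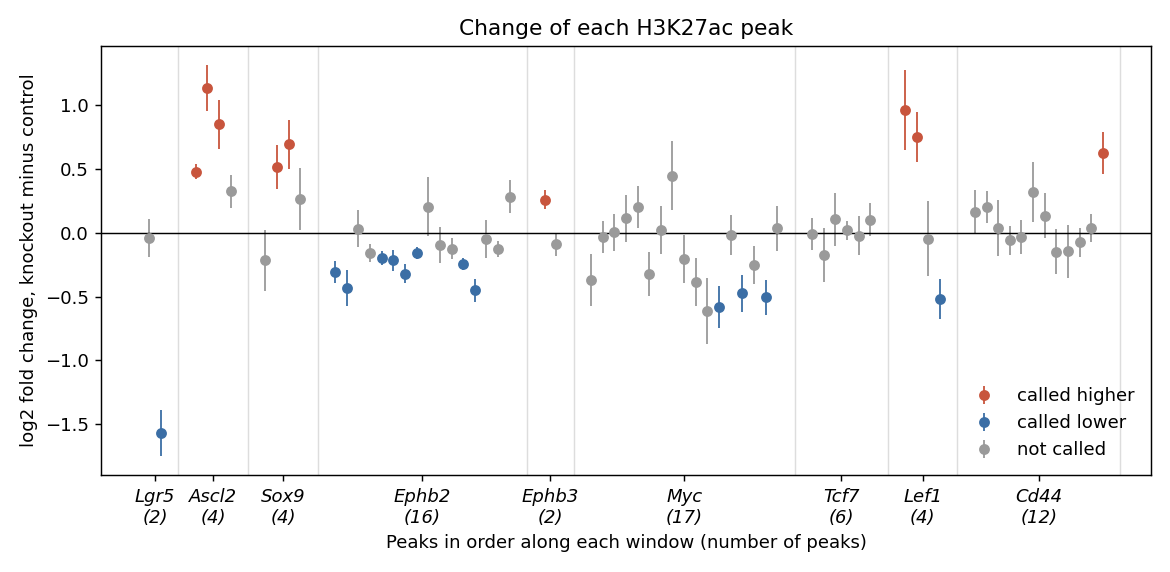
Log2 fold change (knockout minus control) of each of the 67 member peaks with its standard error, in order along each window, coloured by the edgeR call. The lowest point is Lgr5 peak 2 at -1.57 and the highest is Ascl2 peak 2 at 1.14, and no Tcf7 peak was called.

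Summed over a window, acetylation rose at Ascl2 and Sox9, fell at Lgr5, Ephb2 and Myc, and passed no threshold at Ephb3, Tcf7, Lef1 and Cd44. This test replaced the peaks of each window by their sum and was adjusted over all 22673 rows, of which 21.8% were called. All rows but the 9 sums were single peaks, so this share is not a like background for sums. Sums of other windows were not tested. The peaks of a window are of one length in every library, so the density per kb of peak compares libraries at a locus. Between loci it is only a description, since peak edges and background, which was not subtracted, may also differ. In control libraries the summed density was 15.0 ± 0.477 CPM per kb at Ephb2 and 14.3 ± 0.749 at Lgr5 (SD, n = 3). It was 11.8 ± 0.847 CPM per kb at Cd44, 11.5 ± 0.601 at Ascl2, 11.0 ± 0.106 at Tcf7 and 10.9 ± 0.0431 at Myc. The lowest densities were 9.93 ± 0.570 CPM per kb at Ephb3, 8.69 ± 0.415 at Sox9 and 7.69 ± 0.892 at Lef1. Neighbours in this order overlapped in their control libraries except Lgr5 and Cd44, Myc and Ephb3, and Ephb3 and Sox9. In knockout libraries Ascl2 had the highest density of the 9, 16.6 ± 0.144 CPM per kb, and Lgr5, at 9.29 ± 0.327, stood above Lef1 alone and overlapped Myc in its libraries. Density does not show how much of a window is acetylated. The 2 Lgr5 peaks covered 1.71% of 300 kb, and 6.89% of windows of this length centred on a peak had a sum no higher. This share, each for the window's own length, was 7.31% at Sox9, 12.0% at Lef1 and 99.6% at Ephb2. It was between 45.6% and 73.9% at the other loci. Windows centred on peaks favour dense stretches, so these shares do not rank a locus among all stretches of the genome.

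**Figure D2:**
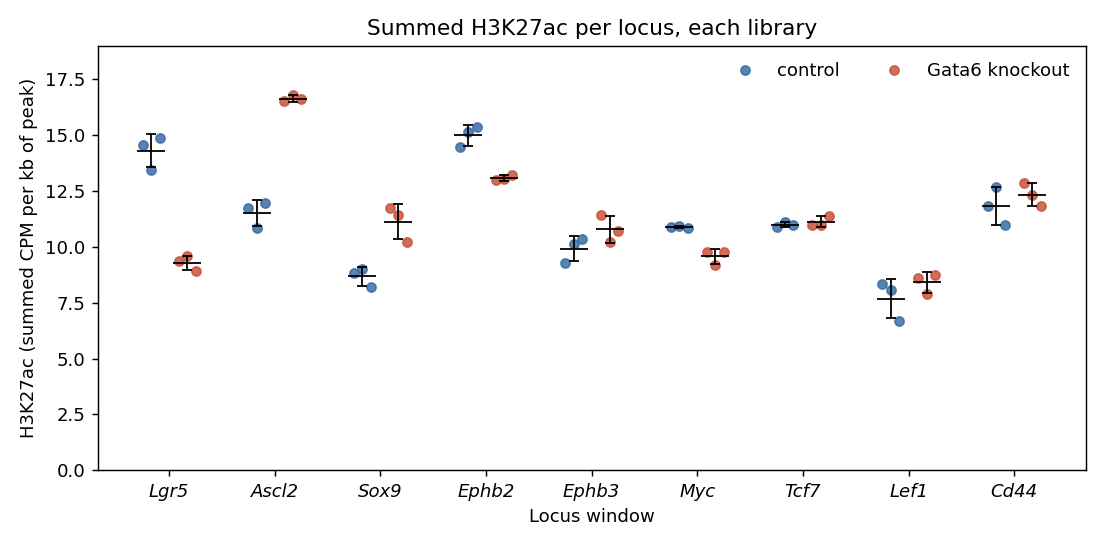
Summed H3K27ac of each window per kb of its peaks (CPM per kb) in each library, with the mean and SD of 3 libraries per group in black. Control and knockout libraries lie apart at Lgr5, Ascl2, Sox9, Ephb2 and Myc and overlap at Ephb3, Tcf7, Lef1 and Cd44.

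For orientation, promoter sequences of a locus that gained acetylation, of one with peaks of both directions and of one whose sum passed no threshold are shown, with GATA letters in capitals. They are the 250 bases before the annotated start from RefSeq, on GRCm38.p6 and in the direction of the gene, and they are not peak sequences, which could not be read without an mm9 genome. Promoters of 6 of the 9 genes were matched by symbol (Ascl2, Ephb2, Ephb3, Tcf7, Lef1 and Cd44), with 10 sequences in all. The Ascl2 promoter is at chr7:142969265-142969514, minus strand, and the Cd44 promoter at chr2:102901666-102901915, minus strand. The first Lef1 promoter is at chr3:131110047-131110296 and the last at chr3:131156044-131156293, both on the plus strand.
Ascl2: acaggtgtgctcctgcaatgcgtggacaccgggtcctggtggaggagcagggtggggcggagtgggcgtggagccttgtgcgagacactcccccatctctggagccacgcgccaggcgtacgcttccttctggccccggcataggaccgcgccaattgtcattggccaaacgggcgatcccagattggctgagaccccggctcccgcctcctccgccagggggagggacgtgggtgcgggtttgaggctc
Cd44: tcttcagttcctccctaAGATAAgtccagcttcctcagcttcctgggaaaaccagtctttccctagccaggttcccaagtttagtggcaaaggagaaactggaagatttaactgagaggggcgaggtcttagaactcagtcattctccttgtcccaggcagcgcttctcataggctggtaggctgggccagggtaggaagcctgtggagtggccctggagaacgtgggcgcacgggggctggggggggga
Lef1, first start: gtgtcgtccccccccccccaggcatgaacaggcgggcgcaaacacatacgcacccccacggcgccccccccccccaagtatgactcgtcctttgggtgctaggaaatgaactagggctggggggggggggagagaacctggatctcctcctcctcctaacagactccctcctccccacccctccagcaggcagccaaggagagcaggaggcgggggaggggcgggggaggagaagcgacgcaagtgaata
Lef1, last start: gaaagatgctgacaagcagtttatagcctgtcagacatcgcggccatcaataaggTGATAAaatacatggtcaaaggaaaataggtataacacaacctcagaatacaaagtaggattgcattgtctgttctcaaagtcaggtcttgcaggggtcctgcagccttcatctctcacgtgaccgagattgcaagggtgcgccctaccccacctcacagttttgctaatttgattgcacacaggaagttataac
AGATAA or TGATAA or AGATAG or TGATAG, searched on both strands, occurred in 2 of the 10 sequences, 1 of Cd44 and 1 of Lef1, and in 26.5% of the 32851 promoters in the table. The Cd44 match begins at -233 and the Lef1 match at -195 relative to the start. The TCF/LEF letters CTTTGAT or CTTTGAA, also on both strands, occurred in none of the 10 and in 7.48% of all promoters. The GC content of the Ascl2 promoter was 67.6%, against a median of 52.4% over all promoters. Over the 10 sequences it ran from 44.8%, at the last Lef1 start, to 76%, at Tcf7, with 56.4% at Cd44. The 10 sequences come from 6 genes, and the first Lef1 sequence overlaps the next. Their shares are therefore not a like comparison with all promoters. A match is not shown to be a bound site, and an absent match says only that these letters are not in this window.

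Among the receptor loci, Lgr5 held the peak with the largest relative fall of the 67. Lgr5 peak 2, at chr10:114941496-114944513 (mm9), held 42.4, 35.8 and 34.9 CPM in control replicates 1 to 3 and 15.0, 12.0 and 11.2 CPM in knockout replicates 1 to 3. Every knockout library lay below every control library. The level fell to 0.337 times that of control, a log2 fold change of -1.57 ± 0.18 (SE, adjusted p = 5.31e-16). Its density of 12.5 CPM per kb in control became 4.22 CPM per kb in the knockout.

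The other peak of this window, Lgr5 peak 1 at chr10:114820983-114823099, was not called. It held 32.4, 33.3 and 41.5 CPM in control and 33.1, 37.2 and 34.6 CPM in knockout libraries, and the groups overlapped (log2 fold change -0.04 ± 0.15, adjusted p = 0.904). Its sign turned without control replicate 3, to 0.09, and without knockout replicate 1, to near 0. Peak 2 carried 51.4% of the window's level in control and 26.7% in knockout libraries. Within each library, the ratio of peak 2 to peak 1 does not depend on scaling between libraries, and it was 1.31, 1.08 and 0.841 in control and 0.453, 0.322 and 0.324 in knockout replicates 1 to 3. With 3 libraries a group an exact permutation test (two-sided) cannot go below p = 0.1, which was its value here. After adjustment over the 8 ratios computed this was 0.133. All 8 were chosen after the values were seen, so a separation of the groups is no further support for the calls. The window's sum went from 73.5 ± 3.84 to 47.7 ± 1.68 CPM, a log2 fold change of -0.63 ± 0.12 (adjusted p = 1.77e-06). In the central 50% of the window, which holds peak 2 alone, it was -1.57.

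Ephb2 had the most acetylation of the 9 windows in control libraries, and its sum fell slightly. Its 16 peaks covered 65.2% of 260 kb and reached 26214 bp in width. Among windows of this length centred on each of the 22731 peaks, 99.6% had a sum no higher than that of Ephb2, and the window held 56.3% of the level of all 9 loci in control libraries. The peaks lay almost end to end over 194 kb, with 7 of 15 gaps under 1 kb and the smallest 33 bp. The sum was 2451, 2569 and 2606 CPM in control and 2200, 2213 and 2244 CPM in knockout replicates 1 to 3, so the groups lay apart. It fell to 0.873 times the control sum, a log2 fold change of -0.20 ± 0.02 (adjusted p = 2.81e-17), the smallest SE among the 9 sums.

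Within the Ephb2 window, 8 peaks were called lower, none higher, and 13 of 16 had a negative fold change. The peak with the highest level, Ephb2 peak 12 at chr4:136341144-136365076, held 497, 548 and 534 CPM in control and 425, 453 and 455 CPM in knockout libraries. All 3 knockout libraries were below all 3 control libraries, with a log2 fold change of -0.24 ± 0.04 (adjusted p = 1.12e-06). Its neighbour, Ephb2 peak 13 at chr4:136365945-136375013, had the lowest log2 fold change of this window, going from 122 ± 11.2 to 89.4 ± 7.05 CPM (log2 fold change -0.45 ± 0.09, adjusted p = 8.00e-06). Ephb2 peak 7 went from 165 ± 7.53 to 132 ± 0.0695 CPM and Ephb2 peak 1 from 118 ± 3.02 to 95.7 ± 4.56 CPM. Their log2 fold changes were -0.32 ± 0.08 and -0.31 ± 0.09, with adjusted p of 0.00026 and 0.00423. Ephb2 peak 5, at chr4:136245198-136267299, went from 302, 307 and 332 CPM to 264, 268 and 290 CPM (log2 fold change -0.20 ± 0.06, adjusted p = 0.00322). Ephb2 peak 8, at chr4:136294136-136320349, the widest, went from 422 ± 21.1 to 378 ± 17.8 CPM (log2 fold change -0.16 ± 0.05, adjusted p = 0.00658). Ephb2 peak 2 went from 45.8 ± 4.37 to 34.0 ± 2.09 CPM (adjusted p = 0.0142) and Ephb2 peak 6 from 136 ± 11.1 to 117 ± 3.01 CPM (adjusted p = 0.0371).

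Most Ephb2 calls were in wide peaks. Of its 10 peaks of at least 9 kb, 7 were called lower and all 10 had negative fold changes, from -0.45 to -0.12. Of its 6 narrower peaks, 1 was called lower and 3 were negative, with 74 to 374 reads per library against 502 to 3728 in the wide ones. Over the whole table, 28.9% of the 1244 peaks of at least 9 kb were called lower and 12.9% higher, with a median log2 fold change of -0.08. The part of read number in which peaks were called was not tested. Without control replicate 3, 5 Ephb2 peaks were called lower (not peaks 2, 5 and 8), and with offsets that follow the mean count also 5 (not peaks 5, 6 and 8). Peaks 2 and 8 also lost their calls without knockout replicate 3 (adjusted p = 0.0712 and 0.109). Peak 6 lost it without control replicate 1 or 2 or knockout replicate 1 or 3, with adjusted p of 0.0706 to 0.259. Calls were also gained. Ephb2 peak 16, with a log2 fold change of 0.28 in the main fit, was called higher without knockout replicate 2. Ephb2 peak 15 was called lower without knockout replicate 3.

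**Figure D3:**
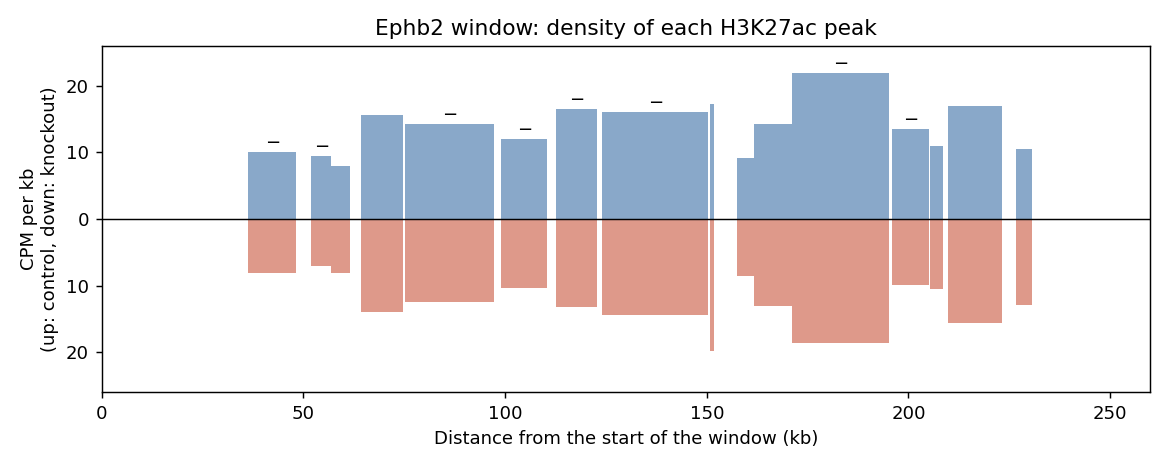
Density of the 16 H3K27ac peaks of the Ephb2 window (CPM per kb, mean of 3 libraries), with control upward and knockout downward, against distance from the window's start in kb; bar width is peak width and a minus sign marks a peak called lower. The peaks form an almost unbroken domain, and peak 12 has the highest density among its wide peaks, 22.0 CPM per kb in control and 18.6 in knockout libraries.

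Ephb3, which encodes the closest relative of EPHB2 in this list, had 1 peak called higher and none lower. Ephb3 peak 1, at chr16:21201186-21213512, rose from 118, 126 and 136 CPM in control to 165, 144 and 148 CPM in knockout replicates 1 to 3. The groups did not overlap, and the log2 fold change was 0.26 ± 0.08 (adjusted p = 0.00559). The call was lost without control replicate 1 (adjusted p = 0.0620) and without knockout replicate 1 (adjusted p = 0.0906). Ephb3 peak 2, which begins 1 kb further on, had 97.6 ± 5.64 CPM in control and 91.6 ± 3.76 CPM in knockout libraries (adjusted p = 0.555). The sum of both was 224 ± 12.9 and 244 ± 13.6 CPM and was not called (log2 fold change 0.12 ± 0.06, adjusted p = 0.160, and 0.08 without control replicate 1 or knockout replicate 1). Within each library the Ephb2 sum was 11.7, 11.2 and 11.1 times the Ephb3 sum in control and 8.53, 9.58 and 9.27 times in knockout replicates 1 to 3. These ratios did not overlap (exact two-sided permutation p = 0.1, the smallest possible, and 0.133 over the 8 ratios).

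Cd44, which encodes a hyaluronan receptor of crypt cells, held 12 peaks, of which 11 were not called. Those 11 had log2 fold changes of -0.15 to 0.32. The peak with the highest level, Cd44 peak 11 at chr2:102738671-102742129, held 63.0, 68.9 and 68.2 CPM in control and 79.0, 64.9 and 61.2 CPM in knockout libraries. The groups overlapped (log2 fold change 0.04 ± 0.11, adjusted p = 0.869), and the sign turned without knockout replicate 1, to -0.08. Cd44 peak 12, at chr2:102797856-102800423, rose from 26.8, 24.1 and 17.8 CPM to 37.6, 33.7 and 34.2 CPM, with no overlap. Its log2 fold change was 0.63 ± 0.16 (adjusted p = 0.00120), and 0.46 without control replicate 3 (adjusted p = 0.0506). It is the 1 member peak that crosses the edge of its window. The sum over the window was 437 ± 31.3 CPM in control and 456 ± 19.2 CPM in knockout libraries (log2 fold change 0.06 ± 0.05, adjusted p = 0.376). It was 0.01 without control replicate 3, 0.11 without control replicate 2 and 0.03 without knockout replicate 1, and 0.02 with peak 12 left out as not wholly inside the window.

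Among the transcription factor loci, Ascl2 gained the most. Its sum was 276, 254 and 281 CPM in control and 387, 394 and 389 CPM in knockout replicates 1 to 3, and all knockout libraries lay above all control libraries. It rose 1.44-fold, with a log2 fold change of 0.53 ± 0.05 (adjusted p = 3.72e-21). Widening the window by 50 kb on each side brought in further peaks and gave 0.30 (adjusted p = 2.76e-15), and the central 50% gave 0.65. Within each library the Ascl2 sum was 3.69, 3.68 and 3.67 times the Lgr5 sum in control and 8.06, 8.01 and 8.49 times in knockout libraries. The groups lay apart (exact two-sided permutation p = 0.1, the smallest possible, and 0.133 over the 8 ratios). This ratio sets a sum called higher over one called lower, so its rise repeats those calls.

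Of the 4 Ascl2 peaks, 3 were called higher and all had positive fold changes. Ascl2 peak 1, at chr7:150111175-150123021, carried 72.9% of the window's level in control and rose from 204, 188 and 199 CPM to 267, 283 and 275 CPM. Its log2 fold change was 0.48 ± 0.06 (adjusted p = 4.32e-13), and at 23.2 CPM per kb in the knockout it was the densest peak of this window. The largest relative gain of the 67 peaks was at Ascl2 peak 2, at chr7:150130506-150134001, which rose from 15.3, 17.1 and 14.6 CPM to 40.7, 26.1 and 36.2 CPM. This was a 2.20-fold difference with a log2 fold change of 1.14 ± 0.18 (adjusted p = 6.52e-09). Ascl2 peak 3 rose from 15.1 ± 0.569 to 27.2 ± 0.841 CPM (log2 fold change 0.85 ± 0.19, adjusted p = 0.000177). Ascl2 peak 4 had 42.6 ± 8.35 and 53.7 ± 3.01 CPM, with overlapping groups and an adjusted p of 0.0517. It was called with total counts, upper-quartile factors, offsets that follow the mean count or the replicate block, and without control replicate 3.

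The gene table at hand, of another assembly, places Th and Tspan32 as the protein-coding neighbours of Ascl2, so the window may hold peaks of these genes. It also gives A930009A15Rik as overlapping Lgr5 and Skp1 as overlapping Tcf7. Zfc3h1 and Tspan8 are its neighbours of Lgr5, and Rpl34 and Hadh those of Lef1. Peaks of those windows may likewise belong to other genes, so differences between peaks of a window need not concern 1 gene. Which peak contains the Ascl2 promoter was not determined here, and the same holds for the other loci.

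**Figure D4:**
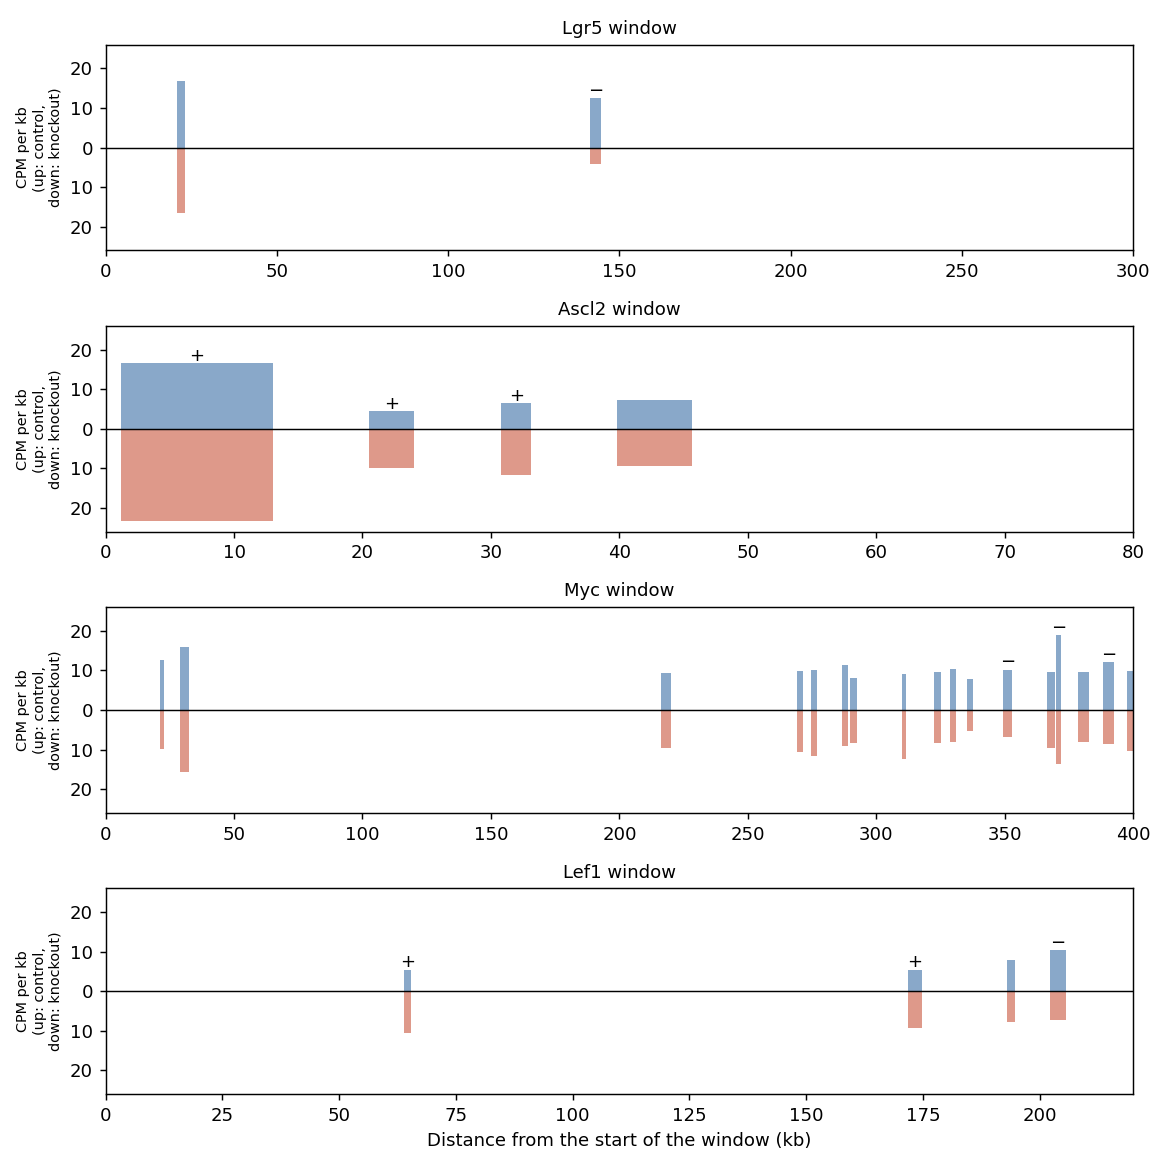
Density of each H3K27ac peak (CPM per kb, mean of 3 libraries; control upward, knockout downward) in the Lgr5, Ascl2, Myc and Lef1 windows against distance from the window's start in kb; plus and minus signs mark peaks called higher and lower. Of the Lgr5 peaks 1 of 2 was called lower and of the Ascl2 peaks 3 of 4 higher, the 3 Myc peaks called lower lie towards the end of the window, and Lef1 has calls in both directions.

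Sox9, which encodes an HMG-box factor of the crypt base, also rose as a sum. It went from 69.9, 71.5 and 65.2 CPM in control to 93.0, 90.5 and 81.1 CPM in knockout replicates 1 to 3, with no overlap (log2 fold change 0.36 ± 0.10, adjusted p = 0.00379). The window held 4 peaks in 400 kb, against a median of 13 in windows of this length centred on a peak. Of those windows, 7.31% had a sum no higher. The gain lay in its 2 middle peaks. Sox9 peak 2, at chr11:112678814-112681464, rose from 23.3, 21.4 and 16.8 CPM to 34.8, 27.2 and 25.7 CPM (log2 fold change 0.52 ± 0.17, adjusted p = 0.0179). Sox9 peak 3, at chr11:112687757-112689829, rose from 17.7, 14.0 and 16.9 CPM to 25.4, 33.0 and 20.8 CPM (log2 fold change 0.70 ± 0.19, adjusted p = 0.00273). Neither peak showed overlap between the groups, but each call was lost when a single library was left out. Peak 2 lost it without control replicate 3 (adjusted p = 0.161) and without knockout replicate 1 (adjusted p = 0.199), and peak 3 without knockout replicate 2 (adjusted p = 0.113). The outer peaks 1 and 4 had log2 fold changes of -0.22 ± 0.24 and 0.26 ± 0.24 and were not called. The ratio of the 2 middle to the 2 outer peaks overlapped between groups, with means of 1.16 ± 0.232 in control and 1.72 ± 0.338 in knockout libraries (exact two-sided permutation p = 0.2, n = 3 each).

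The Myc window, around a growth-promoting factor that Wnt signals activate, fell modestly. Its 17 peaks summed to 506, 508 and 504 CPM in control and 454, 428 and 455 CPM in knockout replicates 1 to 3. The groups lay apart, with a log2 fold change of -0.18 ± 0.04 (adjusted p = 0.000454). No Myc peak was called higher and 3 were called lower. Myc peak 12, at chr15:61949321-61952707, fell from 36.5, 38.2 and 28.6 CPM to 23.0, 20.0 and 25.8 CPM (log2 fold change -0.58 ± 0.16, adjusted p = 0.00332). Myc peak 16, at chr15:61988337-61992451, fell from 42.1, 54.1 and 53.0 CPM to 38.7, 33.4 and 33.0 CPM (log2 fold change -0.51 ± 0.14, adjusted p = 0.00221). Myc peak 14, at chr15:61969764-61972016, fell from 45.9, 40.9 and 41.0 CPM to 28.6, 28.3 and 35.0 CPM (log2 fold change -0.47 ± 0.15, adjusted p = 0.00885). In each of the 3 the groups were separate, although peak 14 lost its call without control replicate 1 (adjusted p = 0.0674) or knockout replicate 2 (adjusted p = 0.0553).

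All 3 Myc losses lay among the last 6 peaks of the window. Summed after the values were seen, and therefore not tested, peaks 12 to 17 went from 222 ± 9.38 to 178 ± 9.22 CPM and peaks 1 to 11 from 284 ± 7.84 to 268 ± 10.3 CPM. The central 50% of the window, which leaves this stretch out, gave a log2 fold change of 0.01 (adjusted p = 0.969), so the fall of the Myc sum rests on the outer peaks. The strongest peak, Myc peak 2 at chr15:61629034-61632288, held 55.0, 54.5 and 46.1 CPM in control and 48.4, 53.7 and 49.7 CPM in knockout libraries. Its groups overlapped (log2 fold change -0.03 ± 0.13, adjusted p = 0.900), and its sign turned without control replicate 1 or 2, to 0.02 or almost 0. Myc peak 11 had the lowest fold change of this window, -0.61 ± 0.26, with overlapping groups and an adjusted p of 0.0692.

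The loci of the paired Wnt effectors Tcf7 and Lef1, whose HMG-box proteins bring beta-catenin to DNA, passed no threshold as sums. None of the 6 Tcf7 peaks was called, and their log2 fold changes lay between -0.17 and 0.11. The sum was 313, 319 and 315 CPM in control and 315, 316 and 328 CPM in knockout replicates 1 to 3, with overlapping groups (log2 fold change 0.02 ± 0.05, adjusted p = 0.865). It was -0.00076 without the peaks of chromosome 5 and 0.00093 without knockout replicate 3. The main Tcf7 peak, Tcf7 peak 4 at chr11:52068277-52080504, held 145, 156 and 139 CPM and 141, 149 and 155 CPM in the 2 groups (log2 fold change 0.02 ± 0.08, adjusted p = 0.901). It carried 46.5% of the window's level in both groups, and its sign turned without control replicate 3 or knockout replicate 3.

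At Lef1 the peaks moved against each other, and the sum did not pass the threshold. Lef1 peak 2, at chr3:130921859-130924737, rose from 17.4, 17.1 and 12.9 CPM in control to 26.1, 24.7 and 28.5 CPM in knockout replicates 1 to 3 (log2 fold change 0.75 ± 0.19, adjusted p = 0.00119). Lef1 peak 1, at chr3:130813834-130815338, rose from 8.70, 7.98 and 8.02 CPM to 14.3, 13.6 and 20.2 CPM (log2 fold change 0.96 ± 0.32, adjusted p = 0.0142). The groups did not overlap at either peak. Lef1 peak 4, at chr3:130952096-130955616, was called lower, from 40.4, 39.1 and 29.8 CPM to 31.7, 21.6 and 22.8 CPM (log2 fold change -0.52 ± 0.16, adjusted p = 0.00763). It is the 1 called member whose groups overlapped, since knockout replicate 1 lay above control replicate 3.

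Of the 3 Lef1 calls, 2 were lost when single libraries were left out. Peak 1 lost its call without control replicate 2 (adjusted p = 0.0518) or 3 (adjusted p = 0.0540), without knockout replicate 3 (adjusted p = 0.0822) and with offsets that follow the mean count (adjusted p = 0.226). Peak 4 lost it without control replicate 1 (adjusted p = 0.0786) and without knockout replicate 2 (adjusted p = 0.0831) or 3 (adjusted p = 0.0661). Peak 2 kept its call without each library in turn. The ratio of peak 2 to peak 4 within a library was 0.431, 0.438 and 0.433 in control and 0.824, 1.14 and 1.25 in knockout replicates 1 to 3, with no overlap (exact two-sided permutation p = 0.1, the smallest possible, and 0.133 over the 8 ratios). It sets a peak called higher over one called lower, so its rise repeats those calls. The Lef1 sum was 73.6 ± 8.54 CPM in control and 80.6 ± 4.46 CPM in knockout libraries (log2 fold change 0.14 ± 0.10, adjusted p = 0.390). It was 0.04 without control replicate 3, 0.20 without control replicate 1 and 0.02 with offsets that follow the mean count, and was called in none of these. In the central 50% of the window, which holds peak 1 alone, the log2 fold change was 0.96 (adjusted p = 0.0142).

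**Figure D5:**
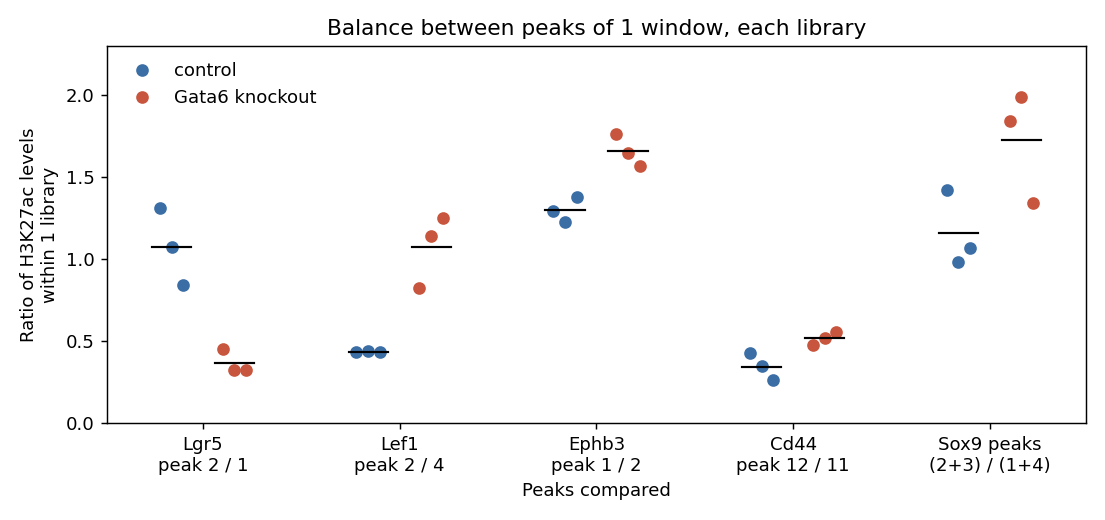
Ratio of H3K27ac levels between peaks of the same window within each library, which does not depend on scaling between libraries; points are libraries and lines are means of 3. Control and knockout libraries lie apart for Lgr5, Lef1, Ephb3 and Cd44 and overlap for Sox9. Each ratio sets called peaks over other peaks and was chosen after the values were seen, so lying apart is no further support for the calls.

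For Ephb3 the ratio of peak 1 to peak 2 was 1.30 ± 0.0744 in control and 1.66 ± 0.0979 in knockout libraries, and for Cd44 the ratio of peak 12 to peak 11 was 0.345 ± 0.0826 and 0.518 ± 0.0409 (SD, n = 3 each). Both were without overlap (exact two-sided permutation p = 0.1, the smallest possible, and 0.133 over the 8 ratios). Both set a peak called higher over one not called, and were chosen after the values were seen. The ratio of the Tcf7 to the Lef1 sum overlapped between the groups (exact two-sided permutation p = 0.4).

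None of the 9 loci lies on chromosome 5, where the median log2 fold change over peaks was -0.26. The median log2 fold change of the chromosomes that carry them was between -0.01 and 0.03, with 0.03 on chromosome 10 of Lgr5 and 0.01 on chromosome 7 of Ascl2.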

How the data were processed

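The values are read counts that the authors deposited without normalization, for 1 set of 22731 peaks shared by 3 knockout and 3 control libraries. The submitters' processing notes name mm9 as the build and list bedtools, Bowtie, Picard, SAMtools and SEACR without roles. Their versions, the merging of peaks and the counter are not stated there. In each library 82.8% to 88.9% of counts were even, as if both mates of a pair had been counted, so the true counting error exceeds what the read number gives. No background was subtracted.

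Peaks were tested with edgeR 4.0.16 in R 4.3.3 (filterByExpr, TMM, quasi-likelihood test with group as the only term, two-sided, Benjamini-Hochberg over all peaks, calls at adjusted p under 0.05), and the script was tested on simulated data. Standard errors come from the F statistic. A second fit replaced the peaks of each window by their sum. Ratios within libraries were compared by exact permutation (SciPy 1.17.1). Named were each window's strongest peak and its called peaks, at most 6 by absolute fold change; Ascl2 peak 4, Sox9 peaks 1 and 4, Ephb3 peak 2, Myc peak 11 and Ephb2 peaks 5 and 8 were added after their values were seen. The members and lists were chosen with earlier results of these data known. Promoters and neighbour names come from RefSeq tables on GRCm38.p6, whose coordinates were not laid over the peaks. Further stem cell genes listed for counting were not analysed here, having no mm9 positions. Alternatives were DESeq2 1.42.0, other scalings, filters, thresholds and windows, the replicate number as a block, and fits that leave out 1 library.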

Additional observations from a re-analysis of the deposited data

How the results depend on the processing

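The calls of all 5 loci with a changed sum (Lgr5, Ascl2, Sox9, Ephb2 and Myc) were kept under every other scaling, without a filter, with the replicate block, without chromosome 5, on halved counts (added after the data were seen), with widened windows and with each library left out; the exception was Myc in the central 50% of its window, 0.0068. There the Cd44 sum was -0.0173 and the Lef1 sum, of 1 peak, 0.962, now called. With trended offsets (loess, span 0.3) the Ephb3 sum, 0.159, was called (adjusted p = 0.0452). Without chromosome 5 the Tcf7 sum was -0.00076. Member peaks called higher and lower numbered 9 to 10 and 11 to 13 across scalings, DESeq2 and the block, 7 to 9 and 10 to 13 with each library left out, and 1 and 1 in a test against a 1.5-fold change, which fewer small changes can pass by construction; all peaks then numbered 381 higher and 85 lower. At adjusted p under 0.01, 1478 of all peaks were lower. The central 50% of the windows held 38 peaks, of which 6 were called higher and 6 lower. This was 31.6% called, against 21.8% of all peaks. Of the 22 called members, 11 kept their call with each library left out and none changed sign, while 21 of the 45 members not called changed sign with at least 1 library left out. Of these, the named ones ranged from -0.101 to 0.0911 (Lgr5 peak 1), -0.114 to 0.0165 (Myc peak 2), -0.0195 to 0.0636 (Tcf7 peak 4) and -0.0808 to 0.112 (Cd44 peak 11). Same-numbered libraries correlated at 0.00591 to 0.0671 in their deviations from group means, other pairs at -0.0489 to 0.0403; with the number as a replicate block, 10 member peaks were higher and 13 lower. Which of depth, spread and number of libraries limits the calls was not tested.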
